A study of Mus musculus with 4 samples.

Results

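The adhesion and lymphocyte migration genes examined here are 41 listed mouse genes that encode integrin subunits, sialomucins, immunoglobulin-family adhesion molecules, integrin activators and cytoskeletal linkers, chemokine receptors, receptors for lipid gradients, and vimentin. They were chosen by name, with earlier results of these data known, and 34 of the 41 have a row among the 16591 genes of the count table. The other 7, Itgax, Vcam1, Esam, Alcam, Ccr6, Ccr10 and Cxcr3, have no row, and no gene in the table had fewer than 4 counts summed over the libraries. RNA was sequenced from a JQ1-resistant Eμ-Myc cell line (JQ1R) and a JQ1-sensitive Eμ-Myc cell line (JQ1S), with 2 libraries each. JQ1 inhibits the BET bromodomain proteins, which read acetylated histones, and Eμ-Myc cells are B-lineage lymphoma cells of mice whose Myc transgene is driven by the immunoglobulin heavy-chain enhancer. Both lines are C57BL/6 and were grown in the same medium at early passage, and no agent added before harvest is named. Each state is represented by 1 line, so a difference tied to resistance and one that merely separates these lines cannot be told apart. Nothing in the labels says that the libraries came from separate cultures.

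Lymphocytes leave the blood in steps. Selectins and their sialomucin ligands, such as PSGL-1, allow cells to roll, chemokine receptors signal arrest, and integrins, activated from inside by talin and kindlin-3, bind immunoglobulin-family partners such as ICAM and VCAM molecules. Sphingosine-1-phosphate receptors and chemokine receptors then guide cells between blood, lymph and tissue, and CXCR4 holds B-cell precursors in the bone marrow.

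Total counts were 10928239 and 11809635 in the resistant libraries and 13048103 and 10346007 in the sensitive libraries. B-lineage markers (9 of 9 in the table) summed to 2150 and 2084 CPM in resistant cells and 1997 and 2033 CPM in sensitive cells, where CPM are counts per library scaled to a total of 1000000 after TMM adjustment. Among them Cd22 was called higher (172 and 168 CPM in resistant, 136 and 144 CPM in sensitive libraries, adjusted p = 0.0129, edgeR). The B-cell precursor genes Vpreb1 and Igll1 were nearly absent. Vpreb1 had 5 and 7 counts in resistant and 4 and 6 counts in sensitive libraries, and Igll1 had 3 and 1 counts and 1 and 1 counts. Markers of the other cell types were scarce. Endothelial markers (4 of 7 in the table, with no row for Kdr, Tek and Cldn5) summed to 7.24 to 9.24 CPM in resistant and 8.94 to 10.3 CPM in sensitive libraries, mostly Egfl7. Myeloid markers (4 of 9, with no row for Lyz2) summed to 3.84 and 3.96 CPM in resistant and 2.54 and 3.50 CPM in sensitive libraries, and none of 7 fibroblast markers had a row. Dendritic-cell markers (3 of 5) summed to 4.21 and 3.87 CPM in resistant and 2.24 and 2.43 CPM in sensitive libraries, most of it from Flt3, a receptor also present on early B-cell precursors, which was called higher (42 and 37 counts in resistant, 22 and 17 counts in sensitive libraries, adjusted p = 0.0418, edgeR). T-cell, NK-cell, megakaryocyte and erythroid markers, 6 of 25 in the table, had at most 11 counts each in any library. The part of such cells in the results was not tested.

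Of the 41 genes, 26 had enough counts to be tested, 8 were in the table under the low-count filter and 7 had no row. At an adjusted p below 0.05 in edgeR's quasi-likelihood test, 1 of the 26 was higher in resistant cells, the sphingosine-1-phosphate receptor S1pr1, and 3 were lower, the nectin-like molecule Pvr, the sialomucin Spn and the integrin subunit Itga4. Over all 11945 genes tested, 2.2% were called higher and 1.52% lower, 3.73% in either direction. The remaining 22 tested genes were not called, and 14 of the 26 had libraries that did not overlap between the lines, against 47.3% of all genes tested. The median log2 change was -0.04 over the 26 genes and 0.0033 over all genes tested, and the median of the 26 is the same with Pvr at its bound, since Pvr is the lowest either way. Pvr passed the filter through the sensitive libraries alone, so once tested it had to differ. DESeq2, a second count test, called only Pvr among the 26 and 1.62% of the genes it tested.

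**Figure D1:**
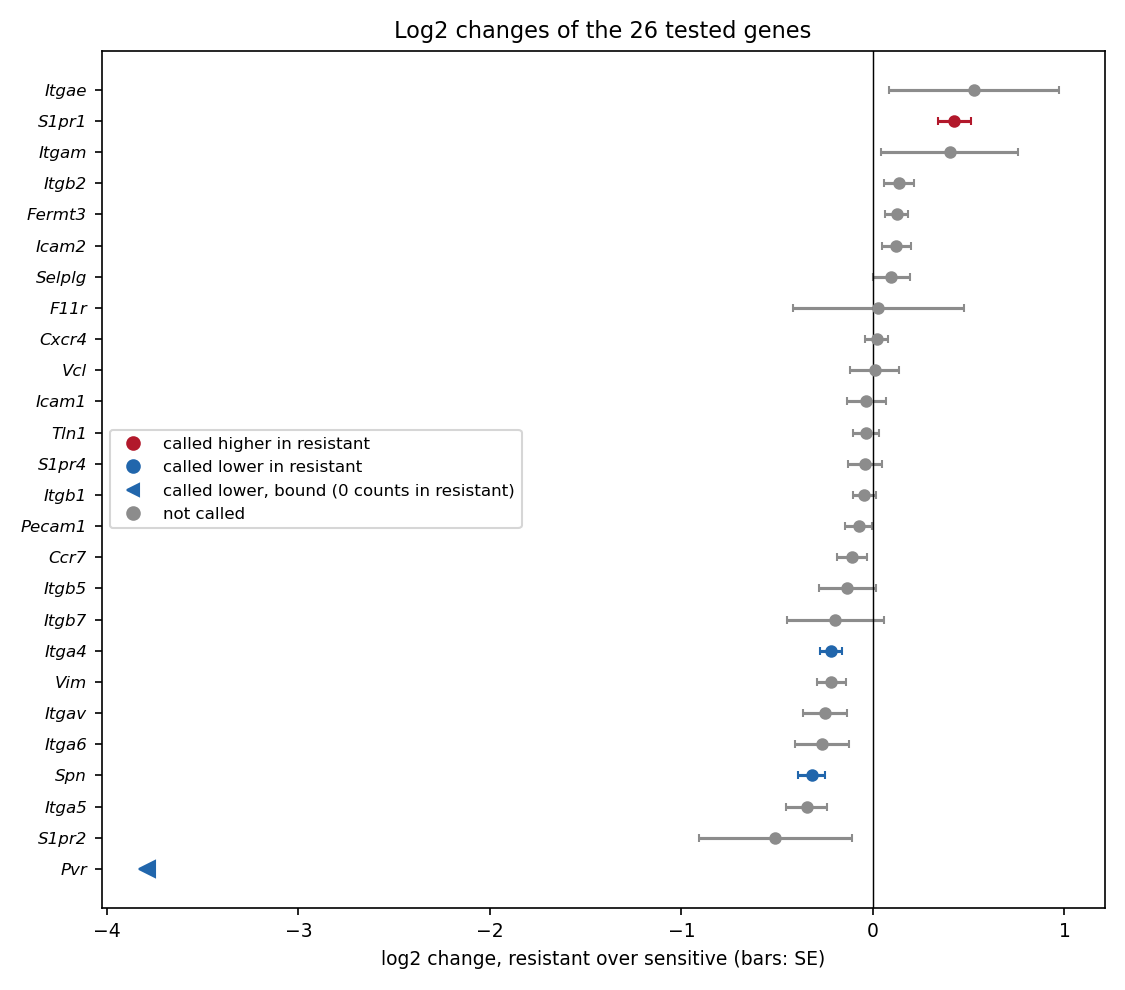
Log2 change (horizontal axis, resistant over sensitive, with SE bars) of the 26 tested genes, sorted from highest to lowest. S1pr1 is the only called gene on the higher side, Itga4 and Spn sit at -0.22 and -0.32, and Pvr is drawn as a bound of -3.79 because resistant cells had 0 counts.

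Pvr was counted in sensitive cells alone. In bulk RNA, fewer cells that express a gene and less RNA per cell cannot be told apart, here and for the genes that follow. PVR (CD155) is a nectin-like adhesion molecule that binds nectin-3 and vitronectin and is a ligand for the lymphocyte receptors CD226, TIGIT and CD96. It had 0 and 0 counts in the resistant libraries, against 53 and 33 counts in the sensitive libraries, or 4.08 and 3.21 CPM. Counts of 0 allow levels of up to 0.275 and 0.253 CPM (3 counts per library, counting error only). Against the mean of those floors Pvr was at least 13.8-fold lower in resistant cells. The adjusted p was 7.79e-06 in edgeR, but as Pvr was tested only because of its counts in sensitive cells, the counts themselves are the result.

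In the table, 73 genes had 0 counts in both resistant libraries, and Pvr, with 86 counts over the sensitive libraries, had the most, followed by B3gnt7 with 17. Of the 64 genes at 0 in both sensitive libraries, the most counted in resistant cells was Ppp1r1c, with 17. In sensitive cells Pvr averaged 0.596 CPM per kb of exon.

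Pvr lies on chromosome 7 at 19903578 to 19921160 on the minus strand (GRCm38), and none of its exonic bases overlaps another gene on either strand. Of the genes with any part within 500 kb, 20 others were in the table and 13 were tested. None of the 13 was called by edgeR, DESeq2 or limma-voom, 1 had an unadjusted p below 0.05 in edgeR, and their log2 changes lay between -0.51 and 0.17. The nearest tested neighbour was Bcl3, a regulator of NF-kB, 80.8 kb away, with 14 and 10 counts in resistant libraries and 19 and 16 counts in sensitive libraries. Relb, an NF-kB subunit, had 36 and 39 counts in resistant and 46 and 26 counts in sensitive libraries. No tested neighbour was at 0 in resistant cells, and all 13 lie on the side of lower coordinates. The 1 neighbour in the table on the other side, the pseudogene Rpl7a-ps8, had 2 and 0 counts in resistant and 1 and 4 counts in sensitive libraries. These neighbours were looked at after the value of Pvr was known.

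**Figure D2:**
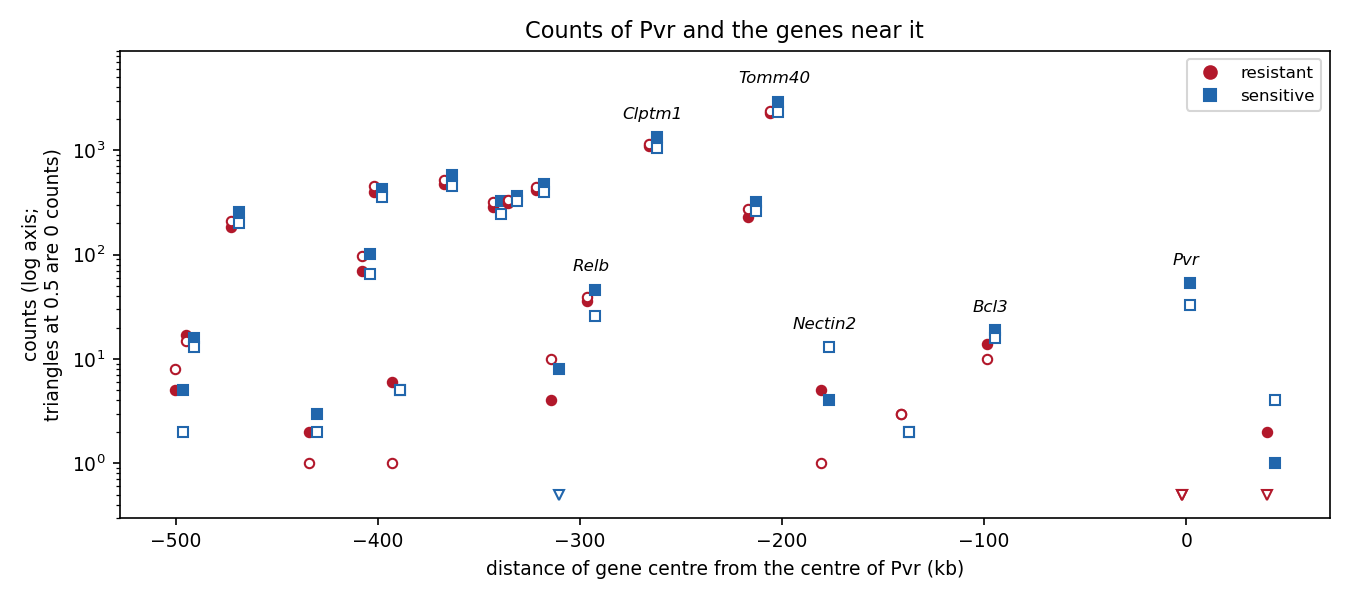
Counts per library (log axis) of Pvr and the 20 other genes in the table with any part within 500 kb, by distance from the centre of Pvr in kb. Filled and open symbols are libraries 1 and 2. Pvr has 0 counts in both resistant libraries and 53 and 33 counts in the sensitive libraries. The strongly counted neighbours Tomm40 and Clptm1 have log2 changes of -0.14 and -0.07 (adjusted p = 0.194 and 0.645, edgeR). Tomm40 has the lowest adjusted p of the tested neighbours.

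The nectins that share this family with Pvr were near the limit of counting. Nectin2, which lies 153 kb from Pvr, had 5 and 1 counts in resistant libraries and 4 and 13 counts in sensitive libraries. Nectin1 had 3 and 7 counts in resistant and 4 and 4 counts in sensitive libraries. Both were under the filter, and in neither were the lines separate.

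Among the lipid-gradient receptors S1pr1 rose. S1PR1 senses sphingosine-1-phosphate and drives the exit of lymphocytes from lymphoid organs into blood and lymph. S1pr1 stood at 41.3 and 39.6 CPM in the resistant libraries, against 28.7 and 31.7 CPM in the sensitive libraries. Both resistant libraries lay above both sensitive ones, and the log2 change was 0.42 ± 0.09 (SE), a 1.34-fold rise with an adjusted p of 0.00924 (edgeR). It was not called by DESeq2 (adjusted p = 0.145) or without resistant replicate 1 (log2 change 0.39, adjusted p = 0.0745 in edgeR). Means were 40.4 ± 1.22 CPM in resistant and 30.2 ± 2.07 CPM in sensitive cells (SD, n = 2 each). The gene lies on chromosome 3 at 115710433 to 115715072 on the minus strand (GRCm38).

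The other lipid-gradient receptors were not called. S1pr4, a lymphoid receptor of the same family, had 37.9 and 37.4 CPM in resistant libraries and 36.0 and 41.8 CPM in sensitive libraries, so the lines overlapped. S1pr2, whose signal confines B cells to germinal centres, was weak, with 10 and 12 counts in resistant and 14 and 18 counts in sensitive libraries. Its log2 change of -0.51 ± 0.40 had an adjusted p of 0.566 (edgeR). Gpr183, the oxysterol receptor that positions B cells in follicles, had 1 and 1 counts in resistant and 0 and 2 counts in sensitive libraries. Per kb of exon, S1pr4 averaged 15.8 CPM in resistant and 16.3 CPM in sensitive cells, and S1pr1 averaged 13.3 CPM in resistant and 9.92 CPM in sensitive cells.

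Integrin alpha subunits decide, with their beta partner, which ligand is bound. Of 6 tested, 1 was lower, against 1.52% of all tested genes, and 5 were not called. Log2 changes were negative in 4 of the 6, and in 5863 of all 11945 tested genes. Itga4 pairs with Itgb1 to form VLA-4, a receptor for VCAM-1 and fibronectin. It stood at 217 and 213 CPM in the resistant libraries, against 244 and 256 CPM in the sensitive libraries. The lines did not overlap, and the log2 change was -0.22 ± 0.06 (SE), a 1.16-fold fall with an adjusted p of 0.0424 (edgeR). This call was the least stable of the 4: it was lost with library-size scaling (adjusted p = 0.0588), with upper-quartile scaling (0.0545), with DESeq2 (0.120), and when resistant replicate 1 or 2 was left out (0.319 and 0.502). Itga4 averaged 215 ± 2.94 CPM in resistant and 250 ± 8.63 CPM in sensitive cells (SD, n = 2 each). Itga4 lies on chromosome 2 at 79255426 to 79333123 (GRCm38). Of its exonic bases, 8.04% overlap Cerkl on the other strand, and whether the counting used strand is not given in the sources used here.

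Itga5, the fibronectin receptor subunit, had 16.8 and 18.9 CPM in resistant libraries and 22.7 and 22.9 CPM in sensitive libraries. The lines did not overlap, but the log2 change of -0.35 ± 0.11 missed the threshold (adjusted p = 0.0897, edgeR). Leaving out sensitive replicate 1 or 2 brought it under the threshold (adjusted p = 0.0418 and 0.0428). Itgav, a subunit of vitronectin receptors, had 14.9 and 16.8 CPM in resistant and 19.6 and 18.1 CPM in sensitive libraries, a log2 change of -0.25 ± 0.11 (adjusted p = 0.273, edgeR), and these lines did not overlap either. Itga6, a laminin receptor subunit, had 13.9 and 14.98 CPM in resistant libraries. In sensitive libraries it had 14.87 and 20.4 CPM, so sensitive replicate 1 lay among the resistant values, and without sensitive replicate 1 it was called lower (log2 change -0.50, adjusted p = 0.00396).

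Beta subunits did not differ beyond the test's threshold. None of 4 tested was called by edgeR, DESeq2 or limma-voom, and 0 had an unadjusted p below 0.05 in edgeR. Itgb1, the shared partner of Itga4, Itga5, Itga6 and Itgav, had 162 and 158 CPM in resistant libraries and 167 and 162 CPM in sensitive libraries (log2 change -0.05 ± 0.06, adjusted p = 0.756). Itgb2, the beta chain of the leukocyte integrins, had 44.1 and 44.5 CPM in resistant and 40.2 and 40.5 CPM in sensitive libraries. Its lines did not overlap, yet the log2 change of 0.14 ± 0.08 had an adjusted p of 0.395 (edgeR). Itgb5 and Itgb7 averaged 10.2 and 2.87 CPM in resistant cells and 11.3 and 3.31 CPM in sensitive cells, and in both genes the libraries of the lines overlapped.

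Levels per length set Itgb1 and Itga4 above the other integrin chains. Itgb1 averaged 39.2 CPM per kb in resistant and 40.4 CPM per kb in sensitive cells, and Itga4 averaged 15.4 CPM per kb in resistant and 17.9 CPM per kb in sensitive cells. Itga9, an alpha chain outside the listed genes, averaged 5.39 CPM per kb in resistant and 6.49 CPM per kb in sensitive cells. The next alpha chain among the listed genes, Itga5, averaged 3.63 CPM per kb in resistant and 4.62 CPM per kb in sensitive cells. Itgb2 averaged 14.5 CPM per kb in resistant and 13.2 CPM per kb in sensitive cells, but its alpha partners were weakly counted. Itgal, the alpha chain of LFA-1, had 8 and 11 counts in resistant libraries and 3 and 8 counts in sensitive libraries. Itgam, the alpha chain of Mac-1, averaged 0.305 CPM per kb in resistant and 0.227 CPM per kb in sensitive cells, and 68.7% of its exonic bases overlap Gm49368 on the same strand, so its counts are uncertain. Itgad had under 0.17 CPM in every library and Itgax had no row. Itgae, a partner of Itgb7, had 12 and 15 counts in resistant and 7 and 12 counts in sensitive libraries. Itgb3 had 5 and 4 counts in resistant and 7 and 10 counts in sensitive libraries.

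**Figure D3:**
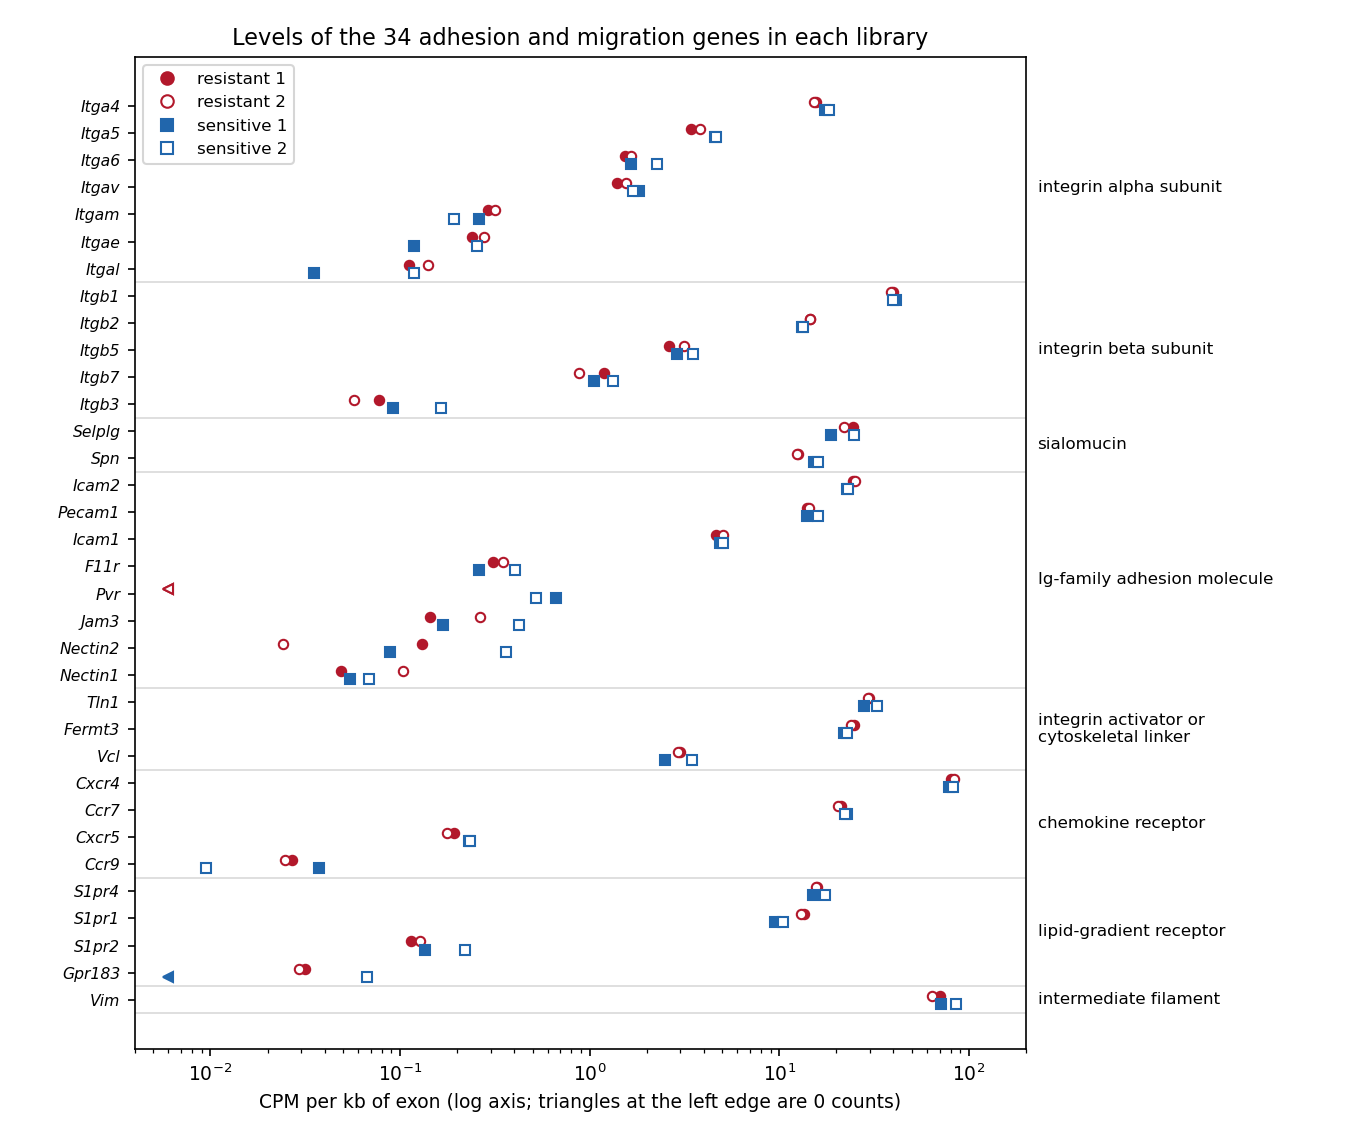
Level per kb of exon (log axis) of the 34 genes in each library, grouped by role and sorted by mean level. Circles are resistant and squares sensitive libraries, filled for replicate 1 and open for replicate 2. Cxcr4, Vim and Itgb1 are highest, the lines lie close together for nearly all genes, and Pvr has no counts in resistant libraries.

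Of the sialomucins, Spn was lower. Spn encodes CD43 (leukosialin), a long negatively charged surface mucin that modulates cell contact. It had 58.9 and 57.9 CPM in the resistant libraries, against 71.1 and 74.9 CPM in the sensitive libraries. The lines did not overlap, and the log2 change was -0.32 ± 0.07 (SE), a 1.25-fold fall with an adjusted p of 0.0140 (edgeR). DESeq2 did not call it (adjusted p = 0.141), nor did edgeR without resistant replicate 1 (0.114) or resistant replicate 2 (0.206). Spn averaged 58.4 ± 0.73 CPM in resistant and 73.0 ± 2.68 CPM in sensitive cells (SD, n = 2 each), and lies on chromosome 7 at 127132232 to 127137823 on the minus strand (GRCm38). Selplg, which encodes the selectin ligand PSGL-1, had 104 and 93.4 CPM in resistant libraries and 80.1 and 106 CPM in sensitive libraries. The sensitive libraries lay on either side of the resistant ones, and the log2 change was 0.10 ± 0.10. It turned to -0.10 once sensitive replicate 1 was left out, and leaving out sensitive replicate 2 gave 0.30, called higher (adjusted p = 1.78e-04, edgeR).

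Spn and Itga4 were the called genes with an entry among the RefSeq promoters (GRCm38.p6), and 24 of the 41 genes had one. The 250 bases upstream of each start are given to show what these genes, both lower in resistant cells, have in front of them. The Itga4 window is chr2:79255176-79255425 on the plus strand and the Spn window is chr7:127137824-127138073 on the minus strand, both written 5′ to 3′ along the gene. Capitals mark matches, on either strand, to any of 6 motifs: the E-box (CACGTG), a RUNX core (TGTGGT), the GC-box (GGGCGG), an ETS core (CCGGAA), the CACCC box (CCACCC) and a TATA box (TATAAA).
Itga4: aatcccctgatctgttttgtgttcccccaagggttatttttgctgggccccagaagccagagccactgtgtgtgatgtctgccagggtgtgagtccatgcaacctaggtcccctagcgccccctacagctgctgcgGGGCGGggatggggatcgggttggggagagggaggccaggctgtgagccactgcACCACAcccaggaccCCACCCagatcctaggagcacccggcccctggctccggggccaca
Spn: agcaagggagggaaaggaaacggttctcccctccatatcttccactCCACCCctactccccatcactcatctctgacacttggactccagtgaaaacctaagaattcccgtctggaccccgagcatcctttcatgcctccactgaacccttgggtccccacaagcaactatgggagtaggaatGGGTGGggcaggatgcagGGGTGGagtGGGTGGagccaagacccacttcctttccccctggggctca

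No matches overlapped. Spn held 4 CACCC boxes and no other motif searched. Itga4 held 1 CACCC box, 1 GC-box and 1 RUNX core. The CACCC box was in 8 of the 24 windows of the listed genes and in 28.1% of all 32851 promoter windows of this length. A GC-box was found for 11 of the 24 genes and in 32.7% of all windows, and a RUNX core for 3 of the 24 and in 14.05%. The E-box, which MYC and MAX bind, was found for 0 of the 24 genes and in 6.02% of all windows. A match is a run of letters, not a site of binding. GC content was 64.0% for Itga4 and 56.8% for Spn, against a median of 52.4% over all windows.

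Immunoglobulin-family adhesion molecules other than Pvr were not called. Icam2, a constitutive ligand of LFA-1, had 46.8 and 47.6 CPM in resistant libraries and 43.2 and 43.6 CPM in sensitive libraries, with lines that did not overlap and a log2 change of 0.12 ± 0.08 (adjusted p = 0.444, edgeR). Pecam1, a homophilic adhesion molecule of leukocytes and endothelium, had 87.4 and 88.9 CPM in resistant and 87.2 and 99.1 CPM in sensitive libraries. The lines overlapped. The endothelial marker Cdh5 averaged 1.49 CPM in resistant and 1.28 CPM in sensitive cells beside it. Icam1, the inducible ligand of LFA-1, had 20.1 and 21.9 CPM in resistant and 21.1 and 22.1 CPM in sensitive libraries, and also overlapped. The junctional adhesion molecules F11r and Jam3 had between 5 and 14 counts in every library. On the other strand, Gm48796 overlaps 36.2% of the exonic bases of Jam3, and Gm47079 overlaps 11.7% of those of Icam1.

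Integrin activators and linkers were not called, and 0 of 3 had an unadjusted p below 0.05 in edgeR and 0 were called by DESeq2 or limma-voom. In level per kb of exon, Tln1 and Fermt3 lay above 83.5% and 79.3% of all tested genes, and Vcl above 29.7%. Tln1, which encodes the talin that links integrins to actin, had 290 and 289 CPM in resistant libraries. It had 273 and 322 CPM in sensitive libraries, on either side of the resistant values. Fermt3, which encodes kindlin-3, the haematopoietic co-activator of integrins, had 143 and 139 CPM in resistant and 126 and 132 CPM in sensitive libraries. The lines did not overlap, and the log2 change was 0.12 ± 0.06 (adjusted p = 0.314, edgeR). Vcl, which encodes the actin linker vinculin, had 24.4 and 24.1 CPM in resistant and 20.4 and 28.4 CPM in sensitive libraries, and 25.5% of its exonic bases overlap Ap3m1 on the other strand.

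Chemokine receptors did not separate the lines at the test's threshold. Neither of the 2 tested was called by edgeR, DESeq2 or limma-voom, and 0 had an unadjusted p below 0.05 in edgeR. Cxcr4, the receptor for CXCL12, had the highest level per length of the 34 genes, above 94.0% of all tested genes. It stood at 145 and 150 CPM in resistant libraries and 142 and 149 CPM in sensitive libraries (log2 change 0.02 ± 0.06, adjusted p = 0.910). Ccr7, which guides lymphocytes to the T zone of lymph nodes, had 41.9 and 40.4 CPM in resistant and 44.8 and 43.9 CPM in sensitive libraries. Its lines did not overlap, but the log2 change of -0.11 ± 0.08 had an adjusted p of 0.514 (edgeR). Cxcr5, the follicle-homing receptor of mature B cells, had 7 and 7 counts in resistant and 10 and 8 counts in sensitive libraries. Ccr9, the gut-homing receptor, had 3 and 3 counts in resistant and 5 and 1 counts in sensitive libraries. Of the exonic bases of Ccr9, 19.0% overlap genes on the other strand.

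Vim encodes vimentin, the main intermediate filament of leukocytes. It had 333 and 304 CPM in resistant libraries, against 337 and 405 CPM in sensitive libraries. The lines did not overlap, but resistant replicate 1 lay just under sensitive replicate 1. The log2 change of -0.22 ± 0.08 missed the threshold (adjusted p = 0.138, edgeR), and it moved with the choice of sensitive libraries. It was -0.35 and called lower without sensitive replicate 1 (adjusted p = 6.71e-11, edgeR), whereas leaving out sensitive replicate 2 gave -0.08.

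**Figure D4:**
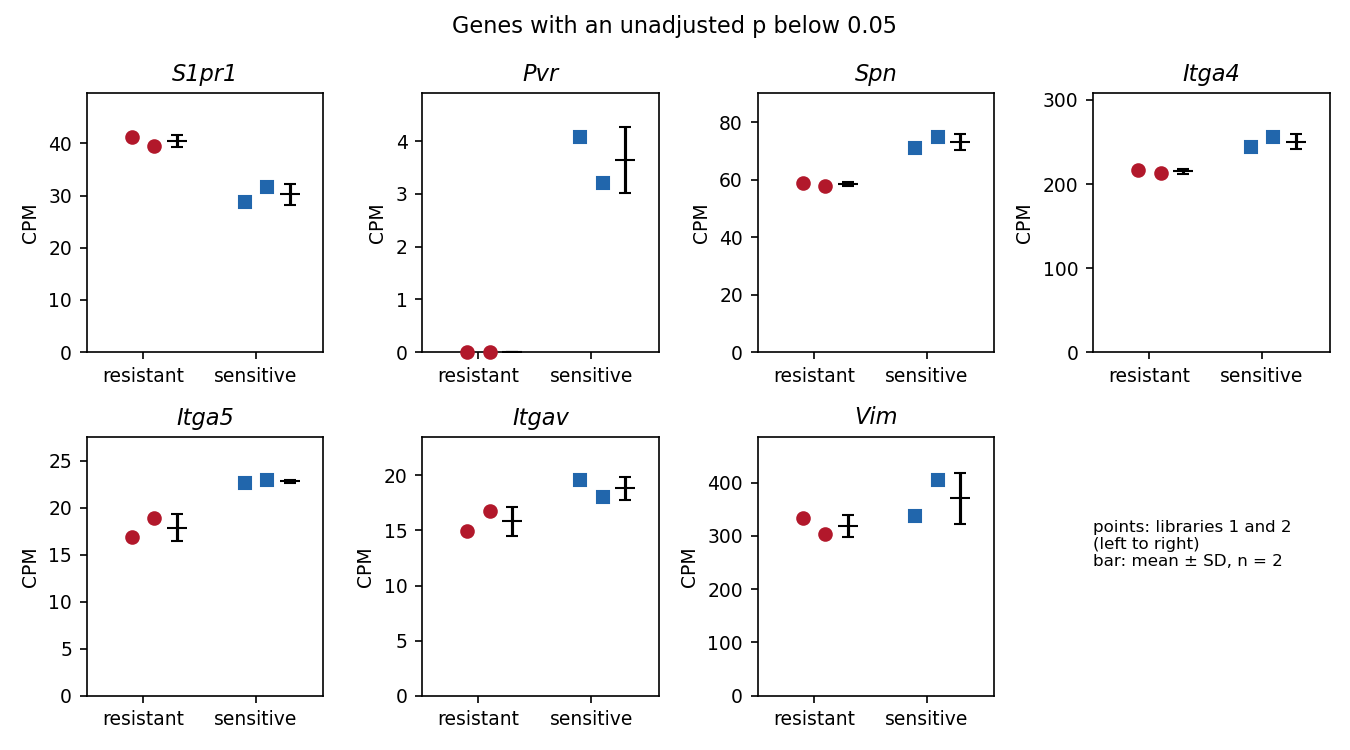
CPM in each library of the 7 genes with an unadjusted p below 0.05 in edgeR, a level that 16.9% of all tested genes reached. Points are libraries and bars give mean ± SD (n = 2 per line), with axes starting at 0. Resistant libraries are higher for S1pr1 and lower for the other 6.

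Many of these genes differed between the sensitive libraries themselves. In 21 of the 26 tested genes sensitive replicate 1 was below sensitive replicate 2, against 50.3% of all tested genes, on log2 of CPM plus 0.5. The median difference between the sensitive libraries was -0.11 for the 26 genes and -0.0016 for all tested genes, while between the resistant libraries it was -0.0066 and 5.15e-05. In 15 of the 26 (57.7%) the sensitive libraries differed by more than the log2 change between the lines, against 51.4% of all tested genes. The first measure sets 1 library against 1 and the second 2 against 2, so the first varies more by its making. Without sensitive replicate 1, 1 gene was called higher (S1pr1) and 7 lower (Pvr, Spn, Itga4, Itga5, Itga6, Tln1 and Vim). Without sensitive replicate 2, 2 were called higher (S1pr1 and Selplg) and 4 lower (Pvr, Spn, Itga4 and Itga5), so S1pr1 and those 4 were called in both fits. In those fits the lone sensitive library is assumed to vary like the resistant pair. The cause of the difference between the sensitive libraries was not tested.

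**Figure D5:**
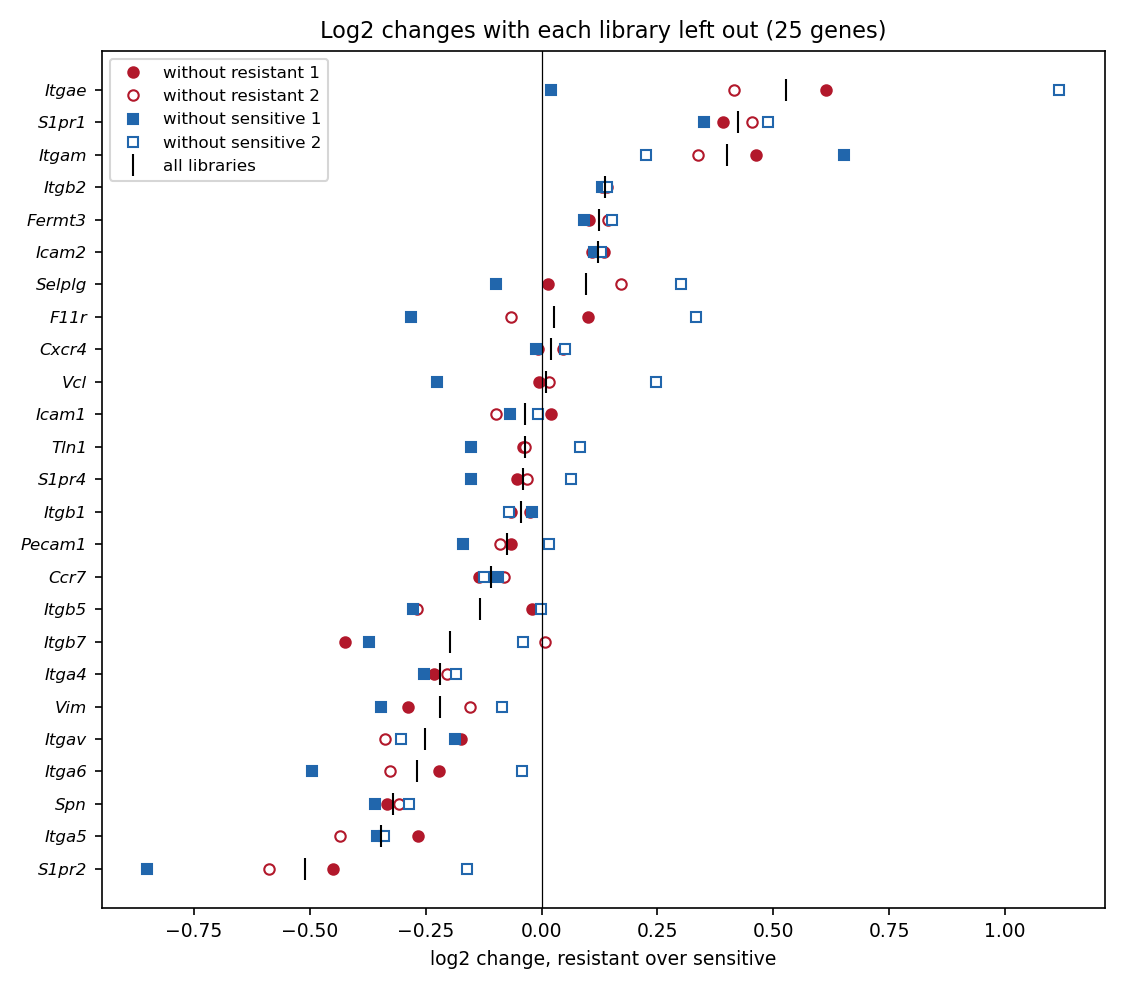
Log2 change (resistant over sensitive) of 25 tested genes, Pvr left out, with all libraries (ticks) and with each library left out (symbols). Circles mark fits without a resistant library and squares fits without a sensitive one. Vcl, Selplg and F11r are the clearest of 9 genes that lie on both sides of 0, and S1pr1, Spn and Itga4 keep their side.

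Other genes of these pathways, in 9 lists of 175 symbols (122 in the table, 89 tested), gave 4 genes higher and 2 lower at the same threshold, against 3.73% called among all tested genes. Their median log2 change was -0.0023. In the list of selectins, selectin-ligand enzymes and surface linkers, 12 were tested, 1 was higher and 0 were lower.

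Of 27 tested genes of migration receptor signalling 2 were higher and 1 lower. Gna13, the G protein subunit downstream of S1PR2, had 153 and 170 CPM in resistant and 132 and 134 CPM in sensitive libraries (log2 change 0.28, adjusted p = 0.0210, edgeR), and was not called by DESeq2 (adjusted p = 0.0731) or without resistant replicate 2 (0.539). Rhoh, a small GTPase of haematopoietic cells, had 95.7 and 96.0 CPM in resistant and 79.6 and 80.4 CPM in sensitive libraries (0.26, adjusted p = 0.0300, edgeR), and was not called by DESeq2 (0.269) or without resistant replicate 1 (0.278) or 2 (0.328). Pik3r5, the p101 regulatory subunit of PI3K gamma, was lower at 4.30 and 4.46 CPM in resistant libraries, against 9.48 and 8.65 CPM in sensitive libraries (log2 change -1.05, adjusted p = 0.00118, edgeR), under all 12 alternatives.

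Of 5 tested chemokine and attractant receptors outside the 41 genes, 1 was higher, Ccr2, the receptor for CCL2. It passed the filter through the resistant libraries alone, with 22 and 30 counts there and 8 and 7 counts in sensitive libraries. As it was tested only because of its counts in resistant cells, its call adds no separate evidence to those counts. Ccr2 had 2.01 and 2.53 CPM in resistant libraries and 0.617 and 0.680 CPM in sensitive libraries (log2 change 1.80, adjusted p = 0.0105, edgeR), and was not called by DESeq2 (adjusted p = 0.290) or without resistant replicate 2 (0.105). Of 5 other intermediate filament genes and linkers 1 was lower, Nes, whose product nestin copolymerises with vimentin. It had 13.3 and 12.04 CPM in resistant and 35.8 and 43.0 CPM in sensitive libraries (log2 change -1.63, adjusted p = 1.16e-07, edgeR), and was called under all 12 alternatives.

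The remaining lists had 0 called genes by edgeR, DESeq2 and limma-voom. Among 23 adaptors of integrin activation and adhesion, 8 had an unadjusted p below 0.05 in edgeR, against 16.9% of all tested genes, led by the actin regulator Vasp (log2 change -0.22, adjusted p = 0.0797). Among 8 genes of S1P and oxysterol metabolism the number was 2, among 3 other integrin subunits 1, among 5 other immunoglobulin-family genes 1, and the single tested chemokine, Ccl25, was not among them. Count tables of this kind measure RNA, so surface amounts of these receptors were not measured.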

How the data were processed

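The deposited file is 1 table of raw read counts, not normalized by the authors, for Ensembl genes in 4 libraries. Per the submitters' processing notes, FastQC, cutadapt 1.7, TopHat, Bowtie2, HTSeq and limma were used with the builds GRCm38 and mm10, and what each did, whether counting used strand, and which annotation was used are unstated in these sources. Symbols, positions and exonic lengths came from GENCODE M21 (16407 of 16591 identifiers matched). Counts were fitted with edgeR 4.0.16 (glmQLFit, glmQLFTest) in R 4.3.3 on the whole table, with TMM factors, group alone as the model, and filterByExpr (minimum count 10, minimum total 15), which left 11945 genes. Benjamini-Hochberg adjustment ran over all of these, and SEs were derived from the F statistic. Replicates were grouped by title, and p-values measure only the spread between these libraries, which may be technical.

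A count of 1 equals 0.0771 to 0.0972 CPM, floors are 3 counts per library, and both cover counting error only. Alternatives were other scalings, filters, DESeq2 1.42.0, limma-voom (limma 3.58.1), a replicate block and each library left out. Named genes are all 41 listed genes, with library values for those called, those with an unadjusted p below 0.05 and the 2 of highest level per length in each role, and called genes of the 9 lists, of which 1 is not reported here. Values of other listed genes, of Itga9, of Vasp and of the neighbours of Pvr were added after they were seen. The genes and lists were chosen with earlier results of these data known. The fit was tested on simulated data.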

Additional observations from a re-analysis of the deposited data

How the results depend on the processing

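Of 311 values of the 26 tested genes under the 12 alternatives, 278 kept their direction and their side of the threshold, 11 lost a call, 7 gained one and 15 changed sign without a call. For 11 genes nothing changed under any alternative that gave a value. Sign changes by setting were F11r at -0.0012 and Vcl at -0.0048 with DESeq2, and F11r at -0.0013 with the replicate block. With each library left out in turn, the log2 changes ran from -0.28 to 0.33 for F11r, -0.23 to 0.25 for Vcl, -0.10 to 0.30 for Selplg, -0.15 to 0.082 for Tln1, -0.15 to 0.063 for S1pr4, -0.17 to 0.015 for Pecam1, -0.42 to 0.0085 for Itgb7, -0.10 to 0.021 for Icam1 and -0.013 to 0.051 for Cxcr4. The scalings moved the median log2 change of all genes by 0.0122 or less.

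Leaving out each library in turn, 270 to 1381 genes were called in all (445 with every library; 302 and 270 without resistant replicate 1 and 2, 1381 and 1187 without sensitive replicate 1 and 2), 0 to 2 of the listed genes were higher and 1 to 7 lower. The same ranges were 0 to 7 for integrin adaptors, 1 to 8 for migration receptor signalling, 0 to 3 for other chemokine and attractant receptors, 1 to 2 for selectins and linkers, 1 to 2 for intermediate filaments, and 0 to 1 for other integrin subunits, S1P and oxysterol metabolism, and other immunoglobulin-family genes. DESeq2 called 201 genes in all, with 0 listed genes higher and 1 lower, and 1 gene of migration receptor signalling and 0 other chemokine receptors. With no filter 1 other immunoglobulin-family gene was called. With the replicate block, 595 genes were called in all, Itga4 lost its call (adjusted p = 0.0538), Itga5 gained one (0.0483), and 1 integrin adaptor and 1 other immunoglobulin-family gene were called. The titles give same-numbered libraries only a number in common, and deviations from the line means correlated at -0.02. Whether such libraries share a batch was not tested, nor was the cause of the changes under the block. Low counts limited Itgae, F11r, S1pr2 and Itgam, whose log2 changes had SEs of 0.45, 0.45, 0.40 and 0.36.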
